A study of Rattus norvegicus with 42 samples.

Results

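Pvalb, Calb1 and Calb2 encode the calcium-binding proteins parvalbumin, calbindin and calretinin. The 3 genes were taken by their symbols from the table of estimated counts, where each has a single transcript among 15516 transcripts of 14304 gene symbols. All 3 passed the filter on low counts, which kept 13062 transcripts for testing. The libraries came from the hippocampus of male wild type Sprague Dawley pups, 1 animal per library, none of which had been given seizures. On postnatal day 7 each pup received a single intraperitoneal injection of saline (vehicle, VEH), phenobarbital (PB, a barbiturate that prolongs the opening of GABA-A receptor channels) at 75 mg/kg or levetiracetam (LEV, an antiseizure drug that binds the synaptic vesicle protein SV2A) at 200 mg/kg, and tissue was taken 72 h later. After exclusion of VEH animal 7, which is marked as excluded in the sample labels, 13 VEH, 14 PB and 14 LEV animals were compared. The total per animal ranged from 9499492 to 14488134 estimated counts. Treatments were spread over the pups of each litter, but no label ties an animal to its litter. The animals were bought in 2 orders, and the sample codes have 2 forms, one for animals 1 to 6 and one for animals 7 to 14 of each group. This form of the code was the only batch-like label, so it was kept as a term in the model and the 2 code series were also examined alone.

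All 3 proteins bind calcium through EF-hand loops, and they buffer the rise in calcium that follows neuronal firing. In the hippocampus they mark largely different cells. Parvalbumin is found in fast-spiking basket and axo-axonic interneurons, appears late in their maturation, and is also abundant in fast-twitch skeletal muscle. Calbindin is found in mature dentate granule cells, in many CA1 pyramidal cells and in some interneurons. Calretinin is found in Cajal-Retzius cells, in interneurons that contact other interneurons and, for a short time, in newborn granule cells. In rn6 coordinates, the transcript of Pvalb (NM_022499) lies on chromosome 7 from 119429018 to 119441488, that of Calb1 (NM_031984) on chromosome 5 from 29538380 to 29562775, and that of Calb2 (NM_053988) on chromosome 19 from 41482743 to 41509618. The deposited values of the 3 transcripts were whole numbers in all 42 libraries.

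The 3 transcripts moved differently after PB. Pvalb was lower, with a fold of 0.562 against VEH. Calb2 was higher, with a fold of 1.249, and Calb1 had a fold of 0.960 that did not pass the test. None of the 3 passed the test between LEV and VEH (edgeR), which 0.00766% of the tested transcripts passed and none did with the fold limit, and 1 of the 3, Calb2, had an unadjusted p under 0.05. None passed it under the 19 alternatives to the fit either, DESeq2 included. In whole tissue, fewer cells of a type and less RNA per cell cannot be told apart.

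Pvalb had few counts in every animal. Its normalized count (counts scaled by effective library size) had a lowest, median and highest value of 27.4, 62.5 and 94.7 in the 13 VEH animals. In the 14 PB animals these values were 9.70, 29.4 and 147, and in the 14 LEV animals they were 46.5, 65.0 and 117. The VEH median was above 13 of the 14 PB values, and 1 PB value was above the highest VEH value. The group means were 66.6 ± 18.1 (SD, n = 13) after VEH, 37.9 ± 33.3 (n = 14) after PB and 70.4 ± 18.2 (n = 14) after LEV. The spread after PB was thus the widest of the 3, and it came mostly from animals 1 to 6. In those 6 PB animals the normalized counts of Pvalb were 27.5, 9.70, 32.5, 58.4, 147 and 29.1, in the order of their numbers. The highest of them, PB animal 5, lay above every other animal analysed, and the lowest, PB animal 2, lay below every other. In the 8 PB animals 7 to 14 the counts ran only from 20.3 to 37.9, below all 8 LEV animals of that series (46.5 to 77.4) and below all VEH animals of it other than animal 8, which had 27.4 (the other VEH animals had 51.3 to 94.7).

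The fitted log2 fold change of Pvalb between PB and VEH was -0.83 (SE 0.22, 95% interval -1.27 to -0.39, adjusted p = 0.0188, edgeR quasi-likelihood test), and the value was under the average of VEH animals with the same form of code in 13 of 14 PB animals. A transcript counted as called when the adjusted p was under 0.05 and the larger group exceeded the smaller by at least 25%. Pvalb was called lower, in a comparison in which 0.260% of the tested transcripts were called lower and 0.605% in either direction. Against LEV, Pvalb was also called lower after PB, with a log2 fold change of -0.91 (SE 0.22, adjusted p = 0.0114, edgeR) in 13 of 14 PB animals and a background of 0.299% called lower. Between LEV and VEH its log2 fold change was 0.08 (95% interval -0.34 to 0.51, adjusted p = 0.989, edgeR). Both drug groups were set against the same VEH animals, so the comparisons with VEH are not independent of each other.

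**Figure D1:**
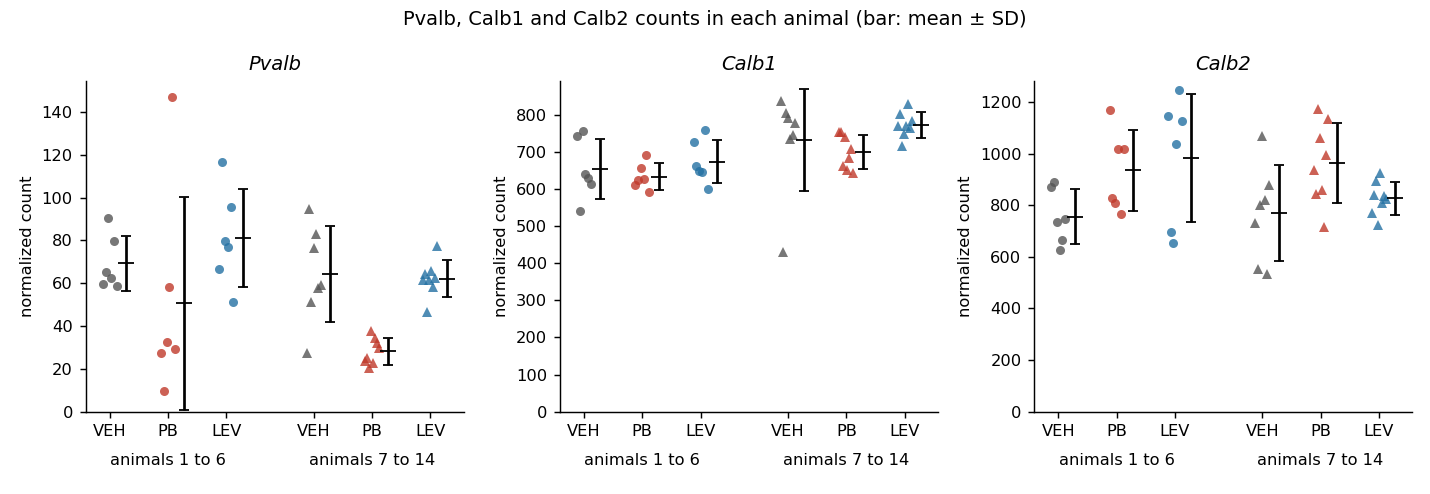
Normalized counts (y axis, linear, from 0) of Pvalb, Calb1 and Calb2 in each of the 41 animals by treatment and code series (x axis, circles for animals 1 to 6 and triangles for animals 7 to 14), with the mean ± SD of each set beside the points. PB animals 7 to 14 lie between 20.3 and 37.9 for Pvalb, PB animal 5 stands alone at 147, and VEH animal 9 stands alone at 430.0 for Calb1.

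Within the code series, the fall of Pvalb passed the test in animals 7 to 14, with a log2 fold change of -1.18 (adjusted p = 0.0018, edgeR), and not in animals 1 to 6, where it was -0.45 (adjusted p = 0.695, edgeR). The difference between the series was itself -0.73 (SE 0.44, unadjusted p = 0.102, adjusted p = 0.565, edgeR), so the series were not shown to differ. Removal of PB animal 5 moved the log2 fold change over all animals from -0.83 to -1.15 (adjusted p = 4.1e-05, edgeR), and removal of PB animal 2 moved it to -0.74. Pvalb passed the test in each of 41 fits that left out 1 animal, against VEH and against LEV. With only the VEH and PB animals in the fit, the log2 fold change was again -0.83 but the adjusted p was 0.0576 (edgeR).

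Calb2 rose after PB by less, and from a narrower spread relative to its level. Its normalized count had a lowest, median and highest value of 532, 748 and 1066 in the VEH animals, 714, 966 and 1171 in the PB animals and 654, 838 and 1245 in the LEV animals. The groups overlapped widely, with 13 of 14 PB animals and 11 of 14 LEV animals above the VEH median, and with 3 animals of each drug group above the highest VEH animal. The means were 763 ± 149 (SD, n = 13) after VEH, 951 ± 151 (n = 14) after PB and 894 ± 180 (n = 14) after LEV. Between PB and VEH the log2 fold change was 0.32 (SE 0.10, 95% interval 0.12 to 0.52, adjusted p = 0.0432, edgeR). Calb2 passed the test for the adjusted p, as did 1.93% of the tested transcripts in this direction, and its rise by a fold of 1.249 was just under the limit of 25%, so that it was not called, whereas 0.345% of the tested transcripts were called higher.

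This result was close to the threshold. Calb2 kept an adjusted p under 0.05 in 26 of 41 fits that left out 1 animal, in which the adjusted p ran from 0.0179 to 0.0828 and the log2 fold change from 0.29 to 0.38. The fold was much the same in both code series, at log2 0.31 in animals 1 to 6 and 0.33 in animals 7 to 14, although neither series passed alone (adjusted p = 0.413 and 0.114, edgeR). Between LEV and VEH the log2 fold change of Calb2 was 0.23 (95% interval 0.03 to 0.43, unadjusted p = 0.0242, adjusted p = 0.806, edgeR). Unadjusted p values under 0.05 were as frequent as 5.84% of the tested transcripts in that comparison. The LEV animals of the 2 series lay apart, at 984 ± 248 (SD, n = 6) in animals 1 to 6 and 827 ± 63.7 (n = 8) in animals 7 to 14. PB and LEV animals differed in Calb2 by a log2 value of 0.09 (95% interval -0.10 to 0.28, adjusted p = 0.651, edgeR), which was 0.22 in animals 7 to 14 and turned to -0.08 in animals 1 to 6.

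Calb1 varied least. Its normalized count had a lowest, median and highest value of 430.0, 742 and 836 in the VEH animals, 590.2, 658 and 754 in the PB animals and 599, 753 and 828 in the LEV animals. The PB and LEV ranges lay inside the VEH range, which reached down through VEH animal 9 at 430.0 and VEH animal 2 at 541. Means were 695 ± 117 (SD, n = 13) after VEH, 670.2 ± 52.5 (n = 14) after PB and 729 ± 66.9 (n = 14) after LEV. The log2 fold change was -0.06 between PB and VEH (95% interval -0.18 to 0.06, adjusted p = 0.625, edgeR) and 0.06 between LEV and VEH (95% interval -0.06 to 0.18, adjusted p = 0.949, edgeR). Between PB and LEV it was -0.12 (95% interval -0.24 to -0.0045, unadjusted p = 0.0421, adjusted p = 0.231, edgeR), and in 13 of 14 PB animals the count was under the average of LEV animals with the same form of code. Calb1 did not pass this test, which 2.78% of the tested transcripts passed in this direction without the fold limit, but it passed with only the PB and LEV animals in the fit (adjusted p = 0.0404, edgeR). Without VEH animal 9 the log2 fold change between PB and VEH was -0.11, and with the excluded VEH animal 7 kept it turned to 0.01.

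**Figure D2:**
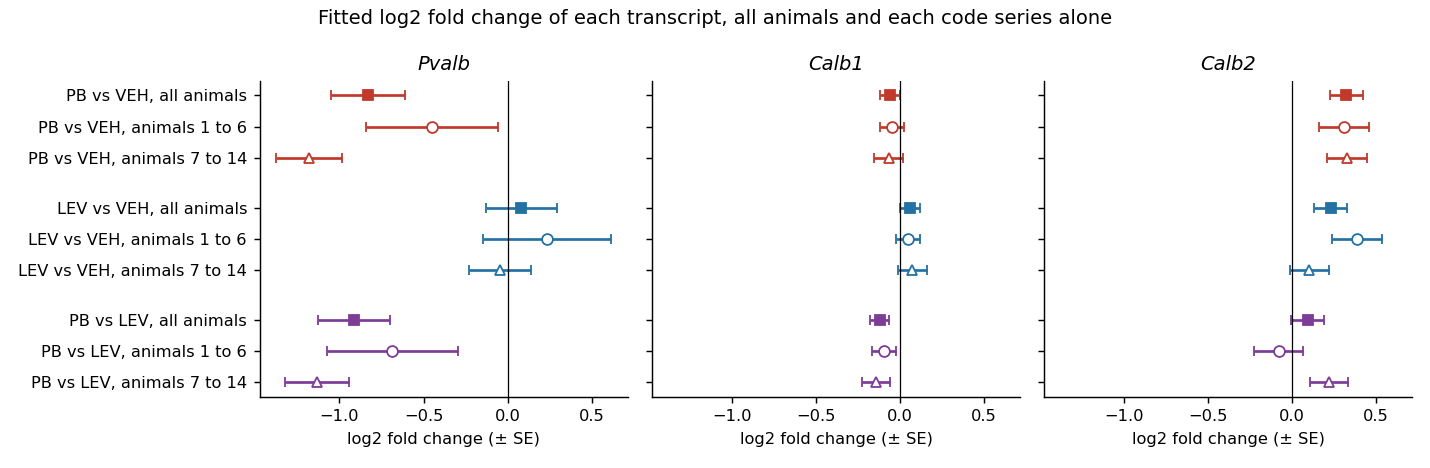
Fitted log2 fold change ± SE (x axis) of Pvalb, Calb1 and Calb2 for each comparison (y axis), over all animals (filled squares) and in animals 1 to 6 (open circles) and 7 to 14 (open triangles) alone. For Pvalb the PB vs VEH value is -0.83 over all animals, -0.45 in animals 1 to 6 and -1.18 in animals 7 to 14, while for Calb2 it is 0.32, 0.31 and 0.33.

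The residual spread of the 3 transcripts was wide for their level of counts. After removal of treatment and code series, the SD on the log2 scale was 0.557 for Pvalb, 0.166 for Calb1 and 0.268 for Calb2. Among transcripts of like mean count, 89.9% of 2328 had a smaller SD than Pvalb, 82.4% of 4205 had a smaller SD than Calb1, and 96.7% of 3873 had a smaller SD than Calb2. The largest deviations were those of PB animals 5 and 2 for Pvalb (1.99 and -1.68) and of VEH animal 9 for Calb1 (-0.743). An SD without these animals was not computed.

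The opposite changes were next compared inside each animal, since a ratio of 2 transcripts in a library does not depend on the library's depth. The genes were chosen with these changes known, and the ratios use the same counts. The p values of the ratios therefore restate the changes above and are not separate support for them. The ratios are of normalized counts without correction for transcript length, so only their differences between groups are read. The Calb2 to Pvalb ratio had a lowest, median and highest value of 5.80, 12.6 and 26.2 after VEH, 5.19, 33.6 and 81.3 after PB and 5.96, 13.1 and 21.7 after LEV. The median of the PB animals lay above the highest animal of both other groups, and the lowest PB value was that of animal 5. The log2 ratio was higher by 1.35 after PB than after VEH (permutation p = 0.00015, adjusted p = 0.0009 over 18 ratio tests) in 13 of 14 animals. It was higher by 1.23 after PB than after LEV (permutation p = 0.0002, adjusted p = 0.0009), and the difference of 0.13 between LEV and VEH did not pass (permutation p = 0.526, adjusted p = 0.593). Permutations were two-sided, 100000 in number and made within the code series. In animals 7 to 14 alone the difference between PB and VEH was 1.46 (exact permutation, adjusted p = 0.0021), and in animals 1 to 6 it was 1.21 (exact permutation, adjusted p = 0.214).

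The Calb1 to Pvalb ratio followed Pvalb, with log2 differences of 0.98 between PB and VEH (permutation, adjusted p = 0.00348), 1.01 between PB and LEV (permutation, adjusted p = 0.00081) and -0.03 between LEV and VEH (permutation, adjusted p = 0.893). The Calb2 to Calb1 ratio ran from 0.715 to 1.65 after VEH with a median of 1.12, from 1.05 to 1.91 after PB with a median of 1.37 and from 0.971 to 1.88 after LEV with a median of 1.08. Its log2 value was higher by 0.37 after PB than after VEH (permutation, adjusted p = 0.00835), in 13 of 14 animals. Between PB and LEV the difference of 0.22 did not pass over all animals (permutation, adjusted p = 0.0852), although it was 0.35 in animals 7 to 14 alone (exact permutation, adjusted p = 0.0154). The mean shifts of Pvalb and of Calb2 between PB and VEH thus each differed from that of Calb1, although the ranges of both ratios overlapped between these groups. With the excluded VEH animal 7 kept, the Calb2 to Calb1 difference between PB and VEH was 0.27 and did not pass (permutation, adjusted p = 0.0895).

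Gad1 and Gad2, the enzymes that make GABA, are present in interneurons of all classes and gave a second reference. Their own log2 fold changes between PB and VEH were -0.16 (adjusted p = 0.0605, edgeR) for Gad1 and -0.11 (adjusted p = 0.411, edgeR) for Gad2. Between PB and LEV they were -0.18 (adjusted p = 0.04, edgeR) for Gad1, which passed, and -0.04 (adjusted p = 0.834, edgeR) for Gad2. Without the fold limit, 2.78% of the tested transcripts passed that test in this direction. A lower reference raises a ratio over it, so the ratios below also hold the changes of the pair. Relative to the sum of the pair, the log2 value of Pvalb differed by -0.87 between PB and VEH (permutation, adjusted p = 0.00386), in 13 of 14 animals, and by -0.99 between PB and LEV (permutation, adjusted p = 0.00081). On the same scale Calb2 was higher by 0.47 after PB than after VEH (permutation, adjusted p = 0.00263), in 12 of 14 animals. The Calb2 difference of 0.24 between LEV and VEH came close to the threshold (permutation p = 0.0273, adjusted p = 0.0546). For Calb1 the difference relative to the pair was 0.11 between PB and VEH (permutation, adjusted p = 0.149), against a log2 fold change of -0.06 before this scaling.

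**Figure D3:**
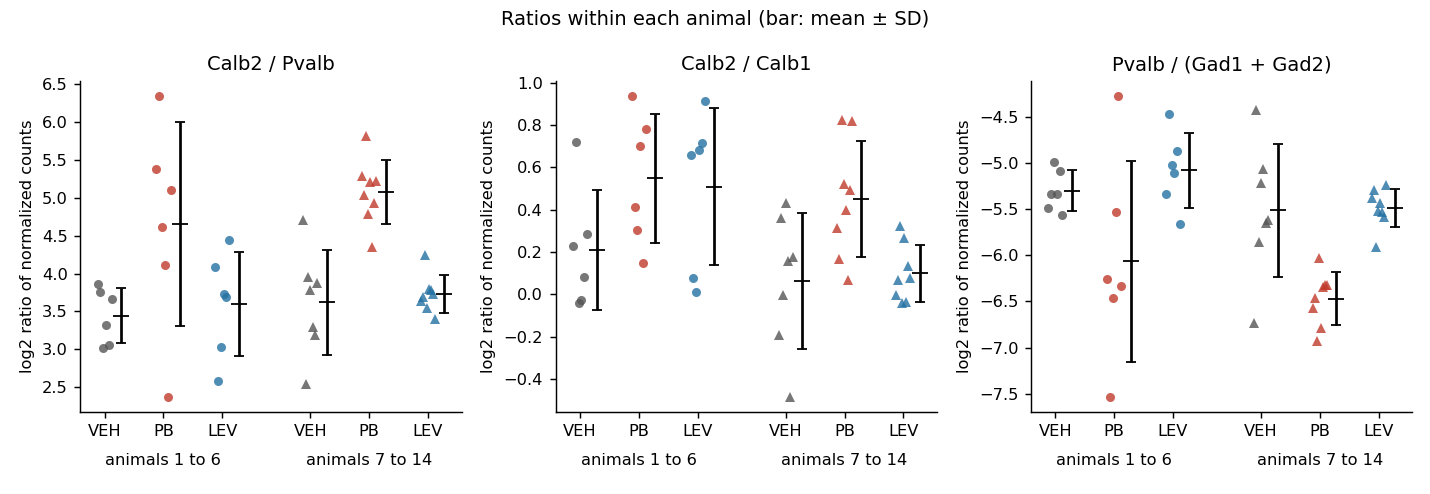
Log2 ratios of normalized counts within each animal (y axis) for Calb2 over Pvalb, Calb2 over Calb1 and Pvalb over the sum of Gad1 and Gad2, by treatment and code series (x axis), with the mean ± SD beside the points. The Calb2 to Pvalb ratio is higher by 1.35 after PB than after VEH, and PB animal 5 alone among the PB animals lies below the lowest VEH animal (a ratio of 5.19 against 5.80).

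The single animals were then examined for whether the 3 transcripts moved together, after the mean of each treatment and code series had been removed. Over the 41 animals, Pvalb and Calb2 had a Pearson r of -0.15 (permutation p = 0.38) and a Spearman rho of -0.17 (permutation p = 0.325). Their deviations had the same sign in 20 animals and opposite signs in 21. The rise of Calb2 and the fall of Pvalb after PB were therefore seen as a shift of group means, and a relation between the size of the shifts in single animals was not detected. In the 14 PB animals alone r was -0.16 (permutation p = 0.629). It was -0.06 in the VEH animals (permutation p = 0.888) and -0.40 in the LEV animals (permutation p = 0.329), and without LEV animals 2 and 6 the last value was 0.01.

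Calb1 showed no relation that passed adjustment with either of the other transcripts. With Pvalb, r was -0.03 (permutation p = 0.843) and rho 0.18 (permutation p = 0.274) over the 41 animals, and r was -0.19 without PB animals 2 and 5. By series r was 0.34 (animals 1 to 6, permutation p = 0.0477) and -0.42 (animals 7 to 14, permutation p = 0.19). The latter value rested on VEH animals 8 and 9, without which it was 0.21. VEH animal 8 had the lowest Pvalb of its group with the highest Calb1, and VEH animal 9 had the highest Pvalb with the lowest Calb1. With Calb2, r was 0.20 (permutation p = 0.353) and rho 0.08 (permutation p = 0.618), and it fell to 0.08 without VEH animals 2 and 9. In all, 60 relations were computed with both coefficients, and the smallest adjusted p among the 18 between the 3 transcripts was 0.201.

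Lists of marker genes were set beside the 3 transcripts to show which other transcripts moved with them. The lists do not include Pvalb, Calb1 or Calb2. Relations of the deviations with 3 lists passed for Pearson's r with Calb2. The strongest was with 10 genes of neocortex and subiculum, the regions that border the hippocampus, with r = 0.62 (permutation p = 7e-05, adjusted p = 0.0042) and rho = 0.48 (permutation p = 0.00117, adjusted p = 0.0351). By series this r was 0.71 (animals 1 to 6) and 0.54 (animals 7 to 14), and it was 0.52 without LEV animal 5 and VEH animal 13. With 9 transcripts typical of striatum, r was 0.60 (permutation p = 0.00045, adjusted p = 0.0135) and rho 0.56 (permutation, adjusted p = 0.0351), with r at 0.64 and 0.57 in the 2 series. The relation with the list of the parvalbumin and somatostatin lineage was weaker, at r = 0.50 (permutation, adjusted p = 0.0493) and rho = 0.36 (permutation, adjusted p = 0.244), and r was 0.37 without VEH animals 9 and 13.

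The summed level of the neocortex and subiculum list was higher on average after PB than after VEH, the direction of Calb2, with overlapping ranges. The summed normalized count of its 10 transcripts ran from 4005 to 5199 after VEH (mean 4767 ± 335.5, SD, n = 13), from 4524 to 6276 after PB (5193 ± 412, n = 14) and from 4423 to 6225 after LEV (5056 ± 484, n = 14). None of the 10 passed the test between PB and VEH, where the median log2 fold change was 0.11 (0.00 over all tested transcripts). The nearest were Foxp2, a forkhead transcription factor of deep cortical layers, at 0.55 (adjusted p = 0.0505, edgeR) and Tle4, a transcriptional corepressor of the same layers, at 0.14 (adjusted p = 0.0527, edgeR). With the mean level of this list as a covariate, the log2 fold change of Calb2 between PB and VEH was 0.11 (SE 0.09, adjusted p = 0.606, edgeR) in place of 0.32, and that of Pvalb was -0.66 (SE 0.24, adjusted p = 0.135, edgeR) in place of -0.83. With the striatum list as the covariate both still passed, at 0.27 for Calb2 (adjusted p = 0.0381, edgeR) and -0.78 for Pvalb (adjusted p = 0.03, edgeR). These covariates were chosen after the relations had been seen, and the share of bordering tissue in the dissections was not tested.

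For Pvalb, the relation that passed for Pearson's r was with the list of mature oligodendrocytes, the cells that form myelin (r = 0.63, permutation p = 0.00107, adjusted p = 0.0214). Its rho was 0.42 (permutation p = 0.0149, adjusted p = 0.179). It rested largely on PB animals 2 and 5, without which r was 0.36, and by series it was 0.78 (animals 1 to 6) and 0.25 (animals 7 to 14). PB animal 2, with the lowest Pvalb, had the lowest summed count of the list at 5475, and PB animal 5, with the highest Pvalb, had the highest at 24718. The summed count ran from 8972 to 24037 in the VEH animals and from 11879 to 24474 in the LEV animals. Its mean was 13020 ± 4172 (SD, n = 13) after VEH, 13470 ± 4531 (n = 14) after PB and 16580 ± 3649 (n = 14) after LEV. The median log2 fold change of the list was 0.39 between LEV and VEH, where no transcript of it passed (edgeR), and -0.40 between PB and LEV. With this list as a covariate Pvalb still passed between PB and VEH (log2 fold change -0.77, adjusted p = 0.00884, edgeR) but not between PB and LEV (-0.56, adjusted p = 0.208, edgeR). PB animal 5 also had the highest choroid plexus sum of the PB animals and PB animal 2 the lowest (90720 and 442), and the relation of Pvalb with that list over the 41 animals was r = -0.01 (permutation p = 0.955). No relation of Calb1 with a list passed. Its largest was r = 0.58 with the interneuron list (permutation p = 0.00992, adjusted p = 0.085), which was 0.24 without VEH animals 8 and 9.

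**Figure D4:**
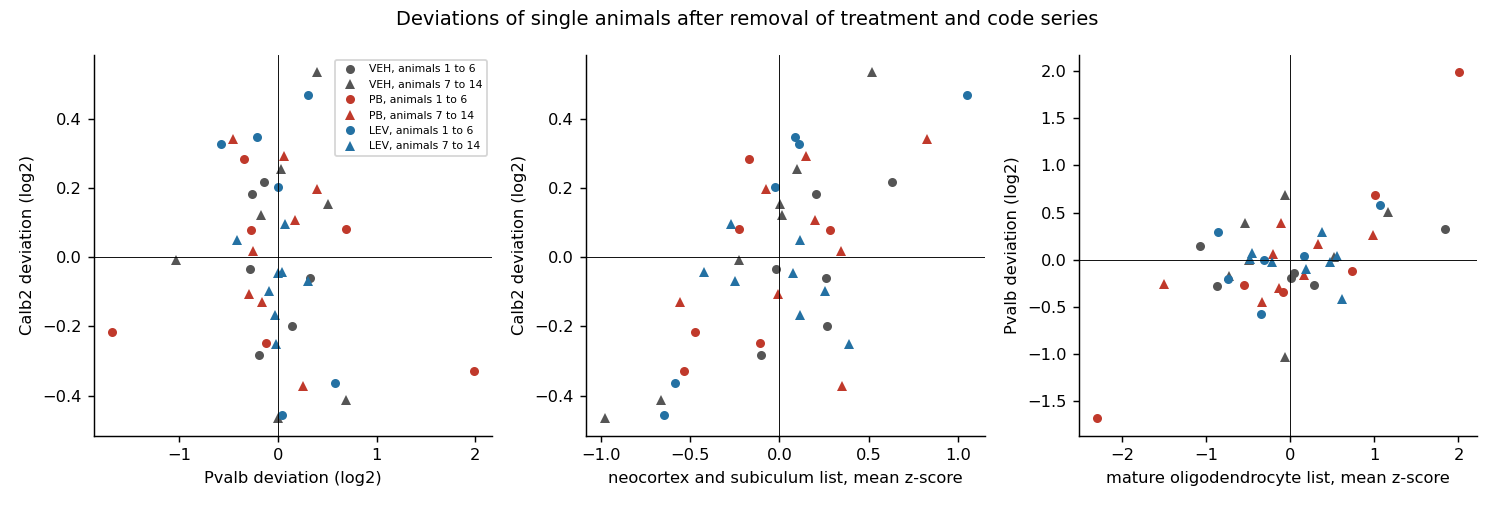
Deviations of single animals from the mean of their treatment and code series on the log2 scale for Calb2 against Pvalb (left), Calb2 against the mean z-score of the neocortex and subiculum list (middle) and Pvalb against the mean z-score of the mature oligodendrocyte list (right), 1 point per animal. Pearson's r is -0.15, 0.62 and 0.63, and the right panel rests largely on PB animals 2 and 5 at its lower left and upper right corners.

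Because Pvalb is also a transcript of fast-twitch muscle, the skeletal muscle list was compared in the same animals. Of its 28 genes 24 were in the table, and 11 passed the filter on low counts. In animals 1 to 6 the summed normalized count of the list was 599 to 826 after VEH, 364 to 470.3 after PB and 562 to 924 after LEV, so the PB animals lay below both other groups. In animals 7 to 14 it was 294 to 445 after VEH, 308 to 509.8 after PB and 351 to 469.6 after LEV, with overlapping ranges. Called lower between PB and VEH were Atp2a1, the calcium pump of fast muscle (log2 fold change -2.46), Myh4, a fast myosin heavy chain (-2.06), and Acta1, skeletal alpha-actin (-0.44). In animals 7 to 14 alone, where the log2 fold change of Pvalb was -1.18, the mean normalized counts after VEH and after PB were 2.66 and 3.41 for Atp2a1, 4.64 and 4.15 for Myh4 and 119 and 102 for Acta1, and the ranges overlapped for each. Mylpf, a fast myosin light chain, had means of 3.58 after VEH and 1.43 after PB in these animals, also with overlapping ranges, and Ckm, muscle creatine kinase, was at 0 in all VEH and PB animals among them. For Tnnt3, fast troponin T, the most abundant transcript had means of 2.44 after VEH and 1.06 after PB in the same animals, with overlapping ranges. The part of muscle transcripts in the difference of Pvalb was not tested. In animals 1 to 6 the summed count of the list separated PB from both other groups, so a covariate cannot tell muscle and treatment apart there. The covariate below is also a mean over 11 transcripts, whose log2 fold changes between PB and VEH ran from -2.46 to 0.49. Across the 41 animals the deviations of Pvalb and of the list had an r of 0.04 (permutation p = 0.744). With the level of the list as a covariate the log2 fold change of Pvalb between PB and VEH was -0.90 (adjusted p = 0.0271, edgeR), and that of Calb2 was 0.34 (adjusted p = 0.0652, edgeR).

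Lists of transcripts for the types of cells that can carry the 3 proteins were counted next. Between PB and VEH, 3.46% of all tested transcripts were lower and 1.93% higher at an adjusted p under 0.05, and each list count is set against these shares. In the general interneuron list, 2 of 8 transcripts were lower after PB than after VEH at an adjusted p under 0.05 (3.46% of all tested transcripts), and neither reached the fold limit. They included Slc32a1, the vesicular GABA transporter, at -0.27 (adjusted p = 0.00367, edgeR). In the list of the parvalbumin and somatostatin lineage, 3 of 25 transcripts were lower (3.46% over all) and none was higher (1.93% over all). They were Sst, the peptide somatostatin, at -0.38 (adjusted p = 0.00183, edgeR), Kcnc1 at -0.21 (adjusted p = 0.00922, edgeR) and 1 of 2 Kcnc2 transcripts at -0.29 (adjusted p = 0.0188, edgeR). Kcnc1 and Kcnc2 encode the Kv3 potassium channels of fast-spiking cells. Lhx6, the transcription factor that these interneurons keep from birth, had a log2 fold change of -0.12 (adjusted p = 0.233, edgeR). The fitted fall of Pvalb was thus larger in size than that of any other listed transcript of its lineage, among which the lowest value was -0.38 and the median -0.12. Its difference from them was not tested, its 95% interval reached up to -0.39, and Pvalb was chosen with its fall known.

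Caudal interneuron types and Cajal-Retzius cells were represented by 2 lists. The interneuron list is not limited to cells with calretinin. Newborn granule cells, which hold calretinin for a short time, are covered by the immature granule list given further below. In the list of Vip and other caudal interneuron types, 3 of 16 transcripts were lower after PB (3.46% over all) and none was higher (1.93% over all). Called lower were Lamp5, a marker of neurogliaform cells, at -0.55 (adjusted p = 0.019, edgeR) and Tac3, the precursor of neurokinin B, at -0.41 (adjusted p = 0.041, edgeR), and Npas1, a transcription factor, was at -0.18 (adjusted p = 0.0326, edgeR). Vip itself had a log2 fold change of -0.32 (adjusted p = 0.0519, edgeR). In the Cajal-Retzius list none of 9 transcripts passed, and Reln, the secreted protein reelin, was at -0.16 (adjusted p = 0.121, edgeR). The deviations of Calb2 and of the Cajal-Retzius list had an r of -0.35 (permutation p = 0.0523, adjusted p = 0.201). Their rho was -0.49 (permutation p = 0.00293, adjusted p = 0.0586), so neither coefficient passed adjustment. Without VEH animal 9 and PB animal 14 r was -0.53, and by series it was -0.64 (animals 1 to 6) and -0.19 (animals 7 to 14).

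The mature granule and CA1 list is not limited to cells that carry Calb1. In it, 3 of 15 transcripts were lower after PB (3.46% over all), and none reached the fold limit. These were Rgs14, a regulator of G protein signaling, at -0.26 (adjusted p = 0.00272, edgeR) and 2 entries of Fibcd1, a CA1 marker, at -0.21 and -0.22 (adjusted p = 0.0284 and 0.0222, edgeR). Both entries carry the same accession, so the 3 stand for 2 genes. Prox1, the transcription factor that defines dentate granule cells, was present at a mean normalized count of 827 over the 41 animals and had a log2 fold change of 0.01. In the list of immature granule cells, which hold calretinin for a short time, 2 of 15 transcripts were higher after PB at an adjusted p under 0.05 (1.93% over all). Another 1 was lower (3.46% over all), none reached the fold limit, and the median log2 fold change was 0.07. In this list Sox11 and Sox4 were higher, at 0.31 and 0.14, and Stmn2 was lower, at -0.08. Between LEV and VEH no transcript of these lists passed (edgeR).

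The wider EF-hand family was counted in the same way. Of 69 other EF-hand genes listed, 62 were in the table and 50 had a tested transcript. Among their 60 tested transcripts, 4 were lower after PB than after VEH (3.46% over all) and none was higher (1.93% over all) at an adjusted p under 0.05, with a median log2 fold change of -0.04. Hpca, the neuronal calcium sensor hippocalcin, was called lower at -0.34 (adjusted p = 0.00562, edgeR). Ncald, the calcium sensor neurocalcin delta, fell by 0.22 on the log2 scale (adjusted p = 0.00149, edgeR), and Ppp3r1, the regulatory subunit of calcineurin, by 0.18 (adjusted p = 0.0179, edgeR). The range over the family was -0.34 to 0.74, so Pvalb at -0.83 lay below it, while the value of Calb2 (0.32) lay inside it. The upper end was S100a6, a low-count transcript (adjusted p = 0.236, edgeR).

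**Figure D5:**
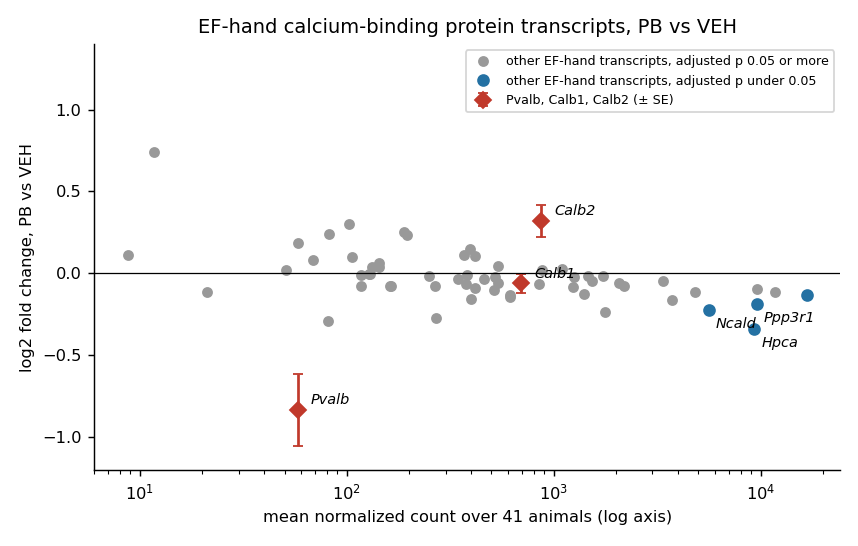
Log2 fold change between PB and VEH (y axis) against the mean normalized count over 41 animals (x axis, logarithmic) for 60 other EF-hand transcripts (circles, blue where the adjusted p is under 0.05) and for Pvalb, Calb1 and Calb2 (diamonds ± SE). The labelled blue circles, Hpca, Ncald and Ppp3r1, lie at -0.34, -0.22 and -0.18, and Pvalb lies below all others at -0.83.

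Of 46 tested transcripts of other calcium-handling genes (pumps, exchangers, release channels and calcium-dependent kinases and phosphatases), 5 were lower after PB (3.46% over all) and none was higher (1.93% over all), and none reached the fold limit. They included Camk2b at -0.19 (adjusted p = 0.00595, edgeR), a subunit of a calcium-dependent kinase, and Ppp3cb at -0.11 (adjusted p = 0.0116, edgeR), a catalytic subunit of calcineurin.

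The transcripts that deviated most like each of the 3 over the 41 animals were found among 11018 transcripts with a mean of at least 50 normalized counts. Nearest to Calb2 were Tenm3, a teneurin adhesion protein, with r = 0.82 (0.93 in animals 1 to 6 and 0.69 in animals 7 to 14), and Pbx3, a homeobox factor, with r = 0.81 (0.77 and 0.85). They were followed by Acvr2a, an activin receptor (0.80), Meis2, a homeobox factor (0.80), and Sstr1, a somatostatin receptor (0.79). Farthest were Cpne4, a copine, at -0.79, Grik4, a kainate receptor subunit, at -0.74 and Sulf2, a heparan sulfate sulfatase, at -0.73. Of these 8 transcripts only Meis2 passed the test between PB and VEH (log2 fold change 0.45, adjusted p = 0.0125, edgeR).

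Nearest to Pvalb were Chn1, a regulator of Rac, with r = 0.72 (0.82 in animals 1 to 6 and 0.48 in animals 7 to 14), Dkk3, a secreted protein of the Dickkopf family (0.70), Mbp, myelin basic protein (0.70), and Ntsr2, a neurotensin receptor (0.69). Farthest was Kdm2b, a histone demethylase, with r = -0.78, -0.84 and -0.62 over all animals and in the 2 series, followed by Nipsnap3b and Fchsd1 (both -0.72). Of these transcripts Chn1 and Dkk3 were lower after PB than after VEH (log2 fold change -0.23 and -0.19, adjusted p = 0.0432 and 0.0188, edgeR), and Kdm2b and Fchsd1 were higher (0.21 and 0.30, adjusted p = 0.0188 and 0.0102, edgeR). Nearest to Calb1 were St18, a zinc finger factor, with r = 0.74 (0.39 in animals 1 to 6 and 0.87 in animals 7 to 14), Slit2, an axon guidance protein (0.69), Rfx3, Bdnf and Cnr1. For Calb1 these values were higher in the series that holds VEH animal 9. Farthest from it were Il3ra (-0.72), Marchf2 (-0.65) and Cyth3 (-0.64). None of the 8 named for Calb1 passed that test (edgeR). These are correlations over animals that share treatment groups, given as a description.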

How the data were processed

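RNA from the hippocampus of 42 pups was sequenced by the authors as paired-end reads from NEBNext Ultra libraries, which do not mark strand, so reads of overlapping antisense genes cannot be told apart. According to the methods, reads were trimmed, aligned to rn6 with STAR 2.7.3a and quantified per RefSeq transcript by the Partek E/M method. The deposited values are the resulting estimated counts per transcript, not normalized, and 13.4% of them are not whole numbers. The authors' own comparisons, a second deposited table with p-values, ratios, fold changes and group means, were not used.

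Estimated counts were rounded and analysed with edgeR 4.0.16 (R 4.3.3) with TMM normalization, effective library sizes of 9588079 to 13786159, filterByExpr by group and a quasi-likelihood fit of the 3 groups with the form of the sample code as an additive term. P values were adjusted by Benjamini-Hochberg over 13062 transcripts. Intervals are at 95% and use the residual and prior degrees of freedom. Ratios used normalized counts with an offset of 0.5, and deviations used log2 CPM with a prior count of 2. Ratios and correlations were tested by permutation in Python 3.11.15 with numpy 2.4.6. The procedure was tested on simulated data. Pvalb rests on 10 to 149 counts per animal, so counting error adds to its spread.

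Named transcripts were the 3 genes, Gad1, Gad2, list members that were called or had the smallest p values, the 5 nearest and the 3 farthest transcripts of each gene, and muscle and choroid plexus transcripts beside the results they move with. Some transcripts under this rule are not reported here. Lhx6, Vip, Reln, Prox1 and S100a6 were named after their values had been seen. The 3 genes and the lists were chosen with earlier results of these data known. Alternatives were DESeq2 1.42.0, its size factors, other filters, no code term, each code series, a block for the animal number, inclusion of the excluded animal, 2 groups only, robust dispersion and each animal left out. The levels of the muscle and choroid plexus lists as covariates were also alternatives. The covariates of neocortex and subiculum, striatum and mature oligodendrocytes, and DESeq2 without independent filtering, were added after the data had been seen.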

Additional observations from a re-analysis of the deposited data

Results flagged for a closer look

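In 18 sets of 1 transcript, group and code series, the gap between the most extreme animal and its neighbour was compared with the range of the set, a rule under which chance marks about 1 set in 20. It marked 2 sets. PB animal 5 had a normalized count of 147 for Pvalb, and the next of the 6 PB animals of its series had 58.4. Its Calb2 count, 766, was the lowest of these 6 animals, and its Calb1 count, 692, was the highest. Its summed count of mature oligodendrocyte transcripts, 24718, was the highest of the 41 animals. VEH animal 9 had a normalized count of 430.0 for Calb1, and the next of the 7 VEH animals of its series had 734. The same animal had the highest Pvalb count of the VEH group, 94.7, the second lowest Calb2 count, 551, and the lowest summed count of the interneuron list in that group, 11019. The part of these levels in the marked values was not tested.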

How the results depend on the processing

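Over 19 alternatives other than leaving out single animals, Pvalb was lower after PB than after VEH in each, from -1.18 to -0.45 on the log2 scale, and passed the test in 16. Calb2 was higher in each, from 0.11 to 0.34, and passed in 10, with adjusted p values from 0.02 to 0.606. DESeq2 gave adjusted p values of 0.00476 for Pvalb and 0.02 for Calb2. It gave none for Pvalb between PB and LEV because of its independent filtering, and 0.00178 without that filtering. The log2 fold change of Calb2 between PB and VEH no longer passed with no filter on low counts (0.32), with no code term (0.32), with robust dispersion (0.32), with the level of muscle as a covariate (0.34), with that of mature oligodendrocytes (0.28), with that of neocortex and subiculum (0.11), or in animals 1 to 6 (0.31) and 7 to 14 (0.33) alone. Pvalb between PB and VEH no longer passed in animals 1 to 6 alone (-0.45), with the 2 groups only (-0.83) or with the neocortex and subiculum covariate (-0.66), and between PB and LEV it no longer passed in animals 1 to 6 alone (-0.68) or with the oligodendrocyte covariate (-0.56). Calb1 between PB and LEV passed with the 2 groups only (-0.12). Signs turned for Calb1 between PB and VEH with all 14 VEH animals (0.00775), for Calb2 between PB and LEV in animals 1 to 6 (-0.0784) and with the neocortex and subiculum covariate (-0.00916), and for Pvalb between LEV and VEH in animals 7 to 14 (-0.0449) and with the oligodendrocyte covariate (-0.21). The fits of single series and of 2 groups hold fewer animals. The cause of these changes was not tested.

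The animal numbers did not pair the animals. Over 40 pairs of animals with the same number the median correlation of their deviations was -4.46e-05, 10 of the pairs were over 0.1, and 7 of 41 animals correlated best with an animal of their own number. With the number as a block, Calb2 between PB and VEH had a log2 fold change of 0.33 (adjusted p = 0.0591, edgeR), and no other test of the 3 transcripts moved across its threshold.

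Among the ratios in animals 1 to 6 alone, log2 differences that no longer passed were those of Calb2 to Pvalb between PB and VEH (1.21) and PB and LEV (1.06), Calb1 to Pvalb (0.87 and 1.02), Calb2 to Calb1 between PB and VEH (0.34), Pvalb to the Gad pair (-0.77 and -0.99) and Calb2 to the Gad pair between PB and VEH (0.45). In animals 7 to 14 alone, Calb2 to Calb1 (0.35) and Calb2 to the Gad pair (0.36) passed between PB and LEV. With all 14 VEH animals, Calb2 to Calb1 no longer passed between PB and VEH (0.27) and Calb2 to the Gad pair passed between LEV and VEH (0.24). Calb1 to Pvalb between LEV and VEH turned to 0.0739 in animals 7 to 14 and to 0.0403 with all 14 VEH animals. The correlation of Pvalb and Calb1 turned to 0.18 with Spearman's rho, to 0.41 and 0.46 in the PB and LEV animals and to 0.34 in animals 1 to 6, and that of Calb1 and Calb2 turned to -0.41 in the PB animals and -0.00946 in animals 1 to 6.

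The count of transcripts called between PB and VEH was 79, and it was 17 in animals 1 to 6, 168 in animals 7 to 14 and 43 with the neocortex and subiculum covariate. Between LEV and VEH it was 0 by edgeR (763 transcripts had an unadjusted p under 0.05). It was 5 with DESeq2, with and without independent filtering, and 5 with terms for treatment by code. It was 1 with no filter on low counts, with a mean of at least 50 counts and with the neocortex and oligodendrocyte covariates, 3 with the striatum covariate, 170 in animals 1 to 6 and 6 in animals 7 to 14. Between PB and LEV it was 76, and 36 with DESeq2, 24 in animals 1 to 6, 34 with all 14 VEH animals, 47 and 16 with the neocortex and oligodendrocyte covariates.

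When single animals were left out, the log2 fold change of Calb2 between PB and VEH ran from 0.29 (without VEH animal 13) to 0.38 (without VEH animal 11) and missed the threshold in 15 of 41 fits. The counts of calls ran from 52 (without PB animal 7) to 115 (without PB animal 5) between PB and VEH, from 39 to 101 for the same omissions between PB and LEV, and from 0 to 4 between LEV and VEH. The log2 ratio of Calb1 to Pvalb between LEV and VEH ran from -0.15 (without VEH animal 9) to 0.0892 (without VEH animal 8), and that of Calb1 to the Gad pair between PB and LEV from -0.00667 to 0.0397. Between PB and LEV, Calb2 to Calb1 ran from 0.18 to 0.26 and passed in 2 fits, and Calb2 to the Gad pair from 0.20 to 0.29 and passed in 3. Calb2 to the Gad pair between LEV and VEH ran from 0.19 to 0.28 and passed in 9. The other fitted fold changes and ratios kept their direction and side of the threshold in all 41.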

Other observations

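VEH animal 7, which its label marks as excluded and which entered no comparison apart from the alternative with all 14 VEH animals, had normalized counts of 41.8 for Pvalb, 272 for Calb1 and 706 for Calb2. Its Calb1 count lay below that of all 41 animals analysed (430.0 to 836), and its Pvalb and Calb2 counts lay inside the range of the VEH group.

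In the list of thalamus and habenula genes, which border the hippocampus from below, 2 of 7 tested transcripts were called higher after PB than after VEH, against 0.345% of all tested transcripts. These were Prkcd, a protein kinase C, and Tcf7l2, a transcription factor, each with a log2 fold change of 0.35 (adjusted p = 0.0262 and 0.0446, edgeR). The median log2 fold change of the 7 transcripts was 0.00355 (0.00462 over all tested transcripts), and the lowest was -0.131. Summed normalized counts of the list were 1889 ± 107 (SD, n = 13) after VEH and 1962 ± 120 (n = 14) after PB. The deviations of Calb2 and of this list had an r of 0.28 (permutation p = 0.0545, adjusted p = 0.201), and those of Pvalb and of this list 0.18 (permutation p = 0.499). Of the glial lists, set against 0.345% of all tested transcripts called higher and 0.260% called lower, microglia held 1 called transcript of 9 between PB and VEH (Cd68, a lysosomal protein, higher at 0.97) and astrocytes 1 of 16 (Gfap, an intermediate filament protein, higher at 0.32). Mature oligodendrocytes held 1 of 14 (Opalin, a myelin membrane protein, lower at -1.39), and none of 17 choroid plexus transcripts was called.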
